A study of Mus musculus with 7 samples.

Results

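Integrins on resting blood cells are mostly held in a shape that binds ligand weakly, and signals from inside the cell switch them on. Calcium and diacylglycerol activate the exchange factor encoded by Rasgrp2, which loads the small GTPase Rap1 with GTP, and GTPase-activating proteins reverse this step. Loaded Rap1 brings talin to the cytoplasmic tail of the integrin beta subunit, where talin and kindlin together shift the receptor to its high-affinity state. The route is best known in platelets and leukocytes, and haematopoietic stem cells use integrins for adhesion in the marrow.

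The 9 genes described here were taken from a list of Rap1 control and integrin activation genes, out of 34932 genes in the data. They are the exchange factor Rasgrp2, the GTPases Rap1a and Rap1b, the GTPase-activating proteins Rasa3, Sipa1 and Rap1gap2, the adaptor Apbb1ip, and the integrin tail-binding proteins Tln1 and Fermt3. All 9 passed the filter on low counts and were among the 14695 genes tested. RNA-seq libraries were made from long-term haematopoietic stem cells (LT-HSCs) of mouse bone marrow, sorted as lineage-negative, Sca-1+, c-Kit+, CD150+ and CD48-. Of the 7 libraries, 4 were labelled as B4galt1 knockout (KO, full knockout mice in the design text, genotype B4-/-) and 3 as wild type (WT), both on a 129S1/C57Bl/6 background. B4galt1 encodes a galactosyltransferase that extends glycans on glycoproteins. The ages of the mice, and whether the replicates came from separate animals, are not stated in the labels. The p-values therefore speak only of the spread among these 7 libraries.

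The libraries held between 23508985 and 34941390 estimated reads. B4galt1 RNA was at 14.6 to 19.3 CPM (counts scaled to the size of the library) in the KO-labelled libraries and overlapped the WT range, 11.3 to 24.4 CPM (log2 fold change -0.20, SE 0.270, edgeR adjusted p = 0.758). Counts summed over a whole gene cannot reveal a deleted stretch of it, and every direction below rests on the labels. The sort genes Ly6a, Kit and Slamf1 averaged 168.5, 252.0 and 95.2 CPM in the KO-labelled libraries and 155.7, 307.8 and 107.5 CPM in WT. They belong to a list of 8 LT-HSC sort and identity genes, which summed to 613.1 to 909.6 CPM in the KO-labelled libraries and 830 to 1089 CPM in WT. Of these 8, 7 had a log2 fold change below 0, with a median of -0.413, and 0 were called. Procr (-0.975), Mecom (-0.545) and Fgd5 (-1.157) lay below WT in every KO-labelled library. Across all genes tested, 15.7% had groups that did not overlap. Y-linked genes were low in KO replicate 4 and WT replicate 3 and high in the other libraries, so each group held libraries of both patterns. Of 12 megakaryocyte and platelet markers, 10 were lower in the KO-labelled libraries, where 1.66% of all genes tested were called lower. The summed level of the 12 was 1230 to 2027 CPM in the KO-labelled libraries and 5534 to 11940 CPM in WT. The 5 mast cell and basophil markers summed to 340.9 to 1256 CPM in the KO-labelled libraries and 12.8 to 301.3 CPM in WT, and Fcer1a among them was higher. The 10 neutrophil and monocyte markers summed to 502.5 to 610.2 CPM in the KO-labelled libraries, most of it Lyz2, and 672.7 to 821.8 CPM in WT, and S100a9 among them was lower. Mpo of the same list ran the other way, at 21.8 to 74.8 CPM in the KO-labelled libraries and 3.56 to 13.6 CPM in WT, without overlap (log2 fold change 2.48, edgeR adjusted p = 0.0509). The part of these and the following cell types in the results below was not tested. The 10 erythroid markers summed to 269.4 to 1644 CPM in the KO-labelled libraries and 194.7 to 1105 CPM in WT, with Car1 the highest in KO replicate 1 and Slc4a1 at 0 in every library. Of the 9 tested, 6 had a log2 fold change above 0 and 3 below, and 0 were called. Hba-a1 averaged 2.90 CPM in the KO-labelled libraries and 94.9 CPM in WT, without overlap (-5.06, edgeR adjusted p = 0.0622). Hba-a2 averaged 2.75 and 47.6 CPM, also without overlap, while Hbb-bt (1.51) and Klf1 (1.26) overlapped. The 6 B cell markers summed to 48.4 to 65.2 CPM in the KO-labelled libraries and 62.6 to 69.2 CPM in WT, most of it Cd79b, with Pax5 at 0 throughout. The 6 stromal and endothelial markers summed to 4.31 to 9.81 CPM in the KO-labelled libraries and 9.10 to 18.3 CPM in WT, with Cdh5 at 0 throughout. The 7 T and NK cell markers, led by Nkg7, summed to 180.8 to 348.6 CPM in the KO-labelled libraries and 132.2 to 205.7 CPM in WT.

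Of the 9 genes, 1, Rasgrp2, was lower in the KO-labelled libraries and none was higher. The KO-labelled mean was 37.5% of the WT mean for Rasgrp2, 63.4% for Rap1b, 68.6% for Tln1 and 73.4% for Rap1a. Rap1b, Rap1a and Tln1 did not pass the test, although in each of them every KO-labelled library lay below every WT library. The GTPase-activating proteins, Fermt3 and Apbb1ip overlapped between the groups. Across all genes 1.66% were called lower, 0.599% higher and 2.26% in either direction, and 15.7% had groups that did not overlap. The 4 of 9 that did not overlap, all lower, included Rasgrp2. The 9 genes had a median log2 fold change of -0.33, against 0.03 over all genes tested, and they were listed with earlier results of these data known. In bulk RNA a lower level can come from fewer cells of a type or from less RNA per cell, and these cannot be told apart here.

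**Figure D1:**
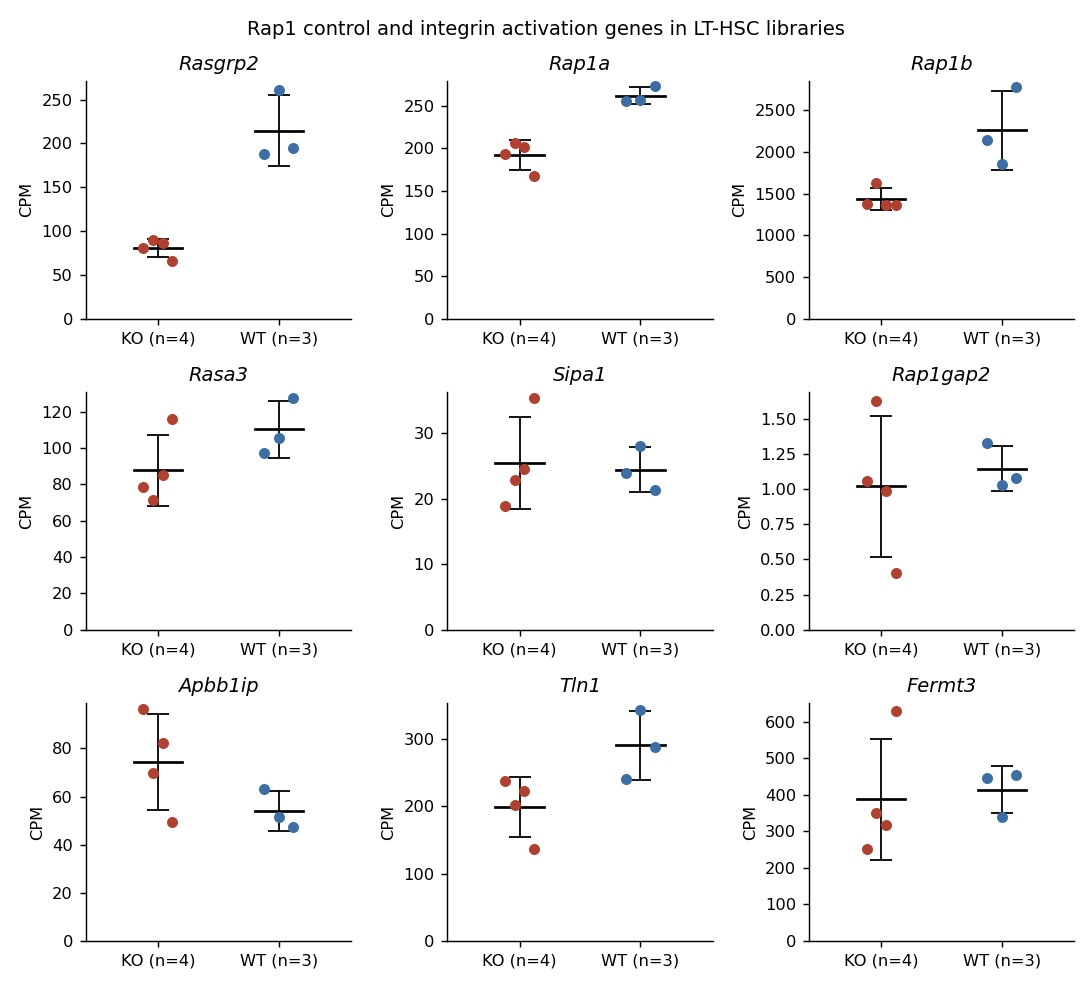
Level of each of the 9 genes in CPM (linear axes from 0) in the 4 KO-labelled libraries and the 3 WT libraries. Points are libraries, horizontal lines are means and bars are SD. The groups are apart for Rasgrp2, Rap1a, Rap1b and Tln1 and overlap for the other 5 genes.

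Rasgrp2 (ENSMUSG00000032946) lies on chromosome 19 of GRCm38 (mm10) from 6399340 to 6415216, plus strand. RefSeq gives it a pair of start sites, at 6399875 and 6401705, and the promoters at both are shown because the reads of this gene fell mainly on transcripts that begin at one of them. The promoters of Fermt3 and Tln1 are shown for comparison, since their products act last in the pathway and their genes were not called. Each run is from the RefSeq promoter table (GRCm38.p6), 250 bases before to 50 bases after the start, 5′ to 3′ on the strand of the gene, with matches to the searched motifs in capitals.
Rasgrp2, first start (chr19:6399625-6399924, plus strand): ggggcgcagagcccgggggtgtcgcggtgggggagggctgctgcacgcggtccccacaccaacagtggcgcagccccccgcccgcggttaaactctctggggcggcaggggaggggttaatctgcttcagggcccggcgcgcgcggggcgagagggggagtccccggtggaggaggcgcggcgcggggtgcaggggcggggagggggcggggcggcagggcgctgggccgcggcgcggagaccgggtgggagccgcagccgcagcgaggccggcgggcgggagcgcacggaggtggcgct
Rasgrp2, second start (chr19:6401455-6401754, plus strand): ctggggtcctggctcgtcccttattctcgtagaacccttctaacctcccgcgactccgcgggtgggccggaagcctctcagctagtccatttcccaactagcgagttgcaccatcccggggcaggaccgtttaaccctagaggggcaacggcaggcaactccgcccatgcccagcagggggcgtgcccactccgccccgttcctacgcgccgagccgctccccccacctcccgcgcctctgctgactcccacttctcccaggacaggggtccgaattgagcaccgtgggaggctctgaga
Fermt3 (chr19:7019420-7019719, minus strand): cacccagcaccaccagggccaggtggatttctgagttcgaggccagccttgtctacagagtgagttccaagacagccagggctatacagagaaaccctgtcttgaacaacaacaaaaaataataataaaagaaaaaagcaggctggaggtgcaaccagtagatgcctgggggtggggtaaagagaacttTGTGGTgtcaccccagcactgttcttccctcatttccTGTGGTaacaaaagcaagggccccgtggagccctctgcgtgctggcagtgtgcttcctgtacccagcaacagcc
Tln1 (chr4:43562534-43562833, minus strand): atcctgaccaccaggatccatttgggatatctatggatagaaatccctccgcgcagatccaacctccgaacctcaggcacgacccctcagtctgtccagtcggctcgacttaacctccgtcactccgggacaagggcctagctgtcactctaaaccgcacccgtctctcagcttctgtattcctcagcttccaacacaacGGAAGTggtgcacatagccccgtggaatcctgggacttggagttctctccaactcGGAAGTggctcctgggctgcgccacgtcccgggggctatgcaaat

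The motifs searched, each on both strands, were AGATAA or TGATAA for GATA factors, GGAAGT for ETS factors and TGTGGT for RUNX factors. Of all 32851 promoters in the table, 18.6% held the GATA letters, 23.8% the ETS letters and 16.8% the RUNX letters. The table held 12 promoters for 8 of the 9 genes. None of the 3 motifs was in either Rasgrp2 window, which had GC contents of 80.0% at the first start and 66.0% at the second. The Tln1 promoter held the ETS letters at 50 bases before and 5 bases after the start, and the Fermt3 promoter held the RUNX letters at 61 and 24 bases before it. The Apbb1ip promoter held the ETS letters at 171 bases before and 5 bases after the start, and 1 of 4 Rap1gap2 promoters held the RUNX letters. The promoters of Rap1b, Rasa3 and Sipa1 held none of them. No promoter of these genes held the GATA letters.

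Rasgrp2, also known as CalDAG-GEFI, is the calcium-sensing activator of Rap1 in platelets. It was at 80.2, 90.3, 86.2 and 65.7 CPM in replicates 1 to 4 of KO, against 187.7, 261.5 and 195.2 CPM in WT replicates 1 to 3. The highest KO-labelled library was below the lowest WT library. EdgeR gave a log2 fold change of -1.41 (SE 0.177, 95% interval -1.80 to -1.02, adjusted p = 0.00169). The call held in each of the 20 alternatives, with log2 fold changes from -1.59 to -1.22. WT replicate 2 had the highest Rasgrp2 level and also the highest summed level of megakaryocyte and platelet markers, 11940 CPM. Between the groups, both the sum and Rasgrp2 were lower in every KO-labelled library than in any WT library. Within the groups, the orders of the sum and of Rasgrp2 differed for other libraries. WT replicate 3 had a lower sum than WT replicate 1, 5534 against 7883 CPM, and slightly more Rasgrp2, 195.2 against 187.7 CPM. KO replicate 1 had the highest sum of the KO-labelled libraries, 2027 CPM, but less Rasgrp2 than KO replicates 2 and 3. The part of such cells or transcripts in the difference was not tested.

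Salmon, which estimated the counts, divides reads among annotated transcripts that share exons, so levels of single transcripts are estimates. Of the 24 annotated Rasgrp2 transcripts, the short Rasgrp2-205 (535 nt, starting at 6401702) carried 52.2% ± 6.00 of the reads in the KO-labelled libraries (SD, n = 4) and 54.2% ± 9.21 in WT (SD, n = 3). Its level was 46.1, 48.0, 47.2 and 28.6 CPM in replicates 1 to 4 of KO, against 89.8, 169.3 and 97.5 CPM in WT replicates 1 to 3. Thus the share of this transcript overlapped between the groups while its level did not. Transcripts that begin within 20 bases of the first RefSeq start were at 3.29 to 7.55 CPM in the KO-labelled libraries and 8.94 to 14.3 CPM in WT, also without overlap. The short Rasgrp2-210 (430 nt) was at 1.98 to 3.62 CPM in the KO-labelled libraries and 10.2 to 22.5 CPM in WT. Coding transcripts that reach the 3′ end of the gene were at 13.3 to 24.8 CPM in the KO-labelled libraries and 17.6 to 61.7 CPM in WT, and these overlapped.

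Over the 7 libraries, the tested protein-coding genes with the pattern nearest to Rasgrp2 were Tg, Dusp3 and Rida, by the root mean square difference of log2 CPM after centring each gene. The differences were 0.0954, 0.142 and 0.155 among 13747 genes ranked. Dusp3, a dual-specificity phosphatase, averaged 23.8 CPM in the KO-labelled libraries and 53.9 CPM in WT, and Rida, an imine deaminase, averaged 121.4 CPM in the KO-labelled libraries and 320.1 CPM in WT. Both were called lower (edgeR adjusted p = 0.00644 and 0.00772). Tg, which encodes thyroglobulin, averaged 1.16 CPM in the KO-labelled libraries and 3.22 CPM in WT, and was not called (edgeR adjusted p = 0.0995). A prior count of 2 was added before taking log2 CPM, which shrinks differences at levels this low.

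Rap1b (chromosome 10, 117813871 to 117846035, minus strand) is the main Rap1 form in platelets. It was at 1376, 1630, 1358 and 1368 CPM in replicates 1 to 4 of KO, against 2150, 1854 and 2778 CPM in WT replicates 1 to 3. The groups did not overlap, and replicate 2 was the highest of those labelled KO while replicate 2 was the lowest WT library. The difference, a log2 fold change of -0.66 (SE 0.170, 95% interval -1.03 to -0.28), had an edgeR adjusted p of 0.0863. DESeq2 (adjusted p = 0.00556) and limma voom (0.0164) called it, as did edgeR without WT replicate 2 (-0.81, adjusted p = 0.0443). The highest adjusted p of any alternative was 0.397, on the log2(TPM + 1) scale.

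Rap1a (chromosome 3, 105727267 to 105801336, minus strand), which encodes a closely related GTPase, was at 192.9, 206.9, 201.9 and 168.0 CPM in replicates 1 to 4 of KO, against 255.6, 256.6 and 273.9 CPM in WT replicates 1 to 3. Here too the groups did not overlap. Its edgeR adjusted p was 0.166, at a log2 fold change of -0.45 (SE 0.142, 95% interval -0.76 to -0.13), and DESeq2 called it (adjusted p = 0.0267). Over all alternatives the fold change ran from -0.49 to -0.08, with adjusted p up to 0.854. Counted as 1 gene, Rap1a and Rap1b together had a log2 fold change of -0.63 (SE 0.164, edgeR adjusted p = 0.0870). About as many Rap1a reads fell on Rap1a-204, annotated as subject to nonsense-mediated decay, as on the coding Rap1a-201 and Rap1a-202 together, with 51.1% ± 1.74 in the KO-labelled libraries (SD, n = 4) and 49.4% ± 5.14 in WT (SD, n = 3).

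Per length, in TPM (transcript abundance scaled for length and depth), Rap1b made up 79.7%, 79.8%, 78.2% and 80.6% of the sum of Rap1a and Rap1b in replicates 1 to 4 of KO, against 81.2%, 82.1% and 84.2% in WT replicates 1 to 3. The means were 79.6% ± 1.01 (SD, n = 4) in the KO-labelled libraries and 82.5% ± 1.54 (SD, n = 3) in WT. The groups did not overlap, and a two-sided exact permutation test gave p = 0.0286, the smallest this design allows. As a share of estimated reads the difference was -1.27 percentage points (exact permutation p = 0.229), so the call depended on scaling by length. The Rap1a part of the sum includes Rap1a-204, annotated as subject to nonsense-mediated decay. It was at 71.2 to 87.6 TPM in the KO-labelled libraries and 61.4 to 106.8 TPM in WT. The share is therefore not one of coding transcripts alone. Taken over the coding transcripts alone, the TPM share of Rap1b was again lower in every KO-labelled library than in any WT library.

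The 3 GTPase-activating proteins, which return Rap1 to its GDP-bound form, were not called. Rasa3 (chromosome 8), a brake on Rap1 in platelets, was at 78.8, 71.4, 84.9 and 115.9 CPM in replicates 1 to 4 of KO, against 97.3, 105.7 and 127.8 CPM in WT replicates 1 to 3. KO replicate 4 lay within the WT range and the other 3 lay below it. Its log2 fold change of -0.33 (SE 0.193) had a 95% interval of -0.76 to 0.10 and an edgeR adjusted p of 0.469. Counting coding transcripts alone turned its sign, to 0.53 (adjusted p = 0.711). The retained-intron transcript Rasa3-205 carried 50.3% ± 16.4 of its reads in the KO-labelled libraries (SD, n = 4) and 72.2% ± 10.3 in WT (SD, n = 3).

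Sipa1 (chromosome 19), a Rap GTPase-activating protein of haematopoietic cells, was at 18.9 to 35.4 CPM in the KO-labelled libraries and 21.3 to 28.0 CPM in WT. Its log2 fold change was 0.06, with a 95% interval of -0.46 to 0.59 (edgeR adjusted p = 0.923). Under 5 of 20 alternatives its sign turned. Rap1gap2 (chromosome 11), known from human platelets, was close to the detection limit, with 15 to 44 reads in the KO-labelled libraries and 22 to 39 reads in WT. Its 95% interval, of -1.43 to 1.08 on the log2 scale, does not exclude a 2-fold change in either direction at this depth. Each of these genes thus had a range in the KO-labelled libraries that enclosed the whole WT range.

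Apbb1ip (chromosome 2, 22774094 to 22875653, plus strand) encodes RIAM, which links GTP-bound Rap1 to talin. It was at 96.2, 69.9, 82.2 and 49.3 CPM in replicates 1 to 4 of KO, against 63.1, 51.4 and 47.3 CPM in WT replicates 1 to 3. KO replicates 1 to 3 lay above all WT libraries and replicate 4 among them. EdgeR put it at a log2 fold change of 0.46 (SE 0.227, 95% interval -0.04 to 0.97, adjusted p = 0.382). The coding transcript Apbb1ip-201 held 40.7%, 40.4%, 38.2% and 39.9% of the reads in replicates 1 to 4 of KO, against 82.9%, 79.9% and 55.3% in WT replicates 1 to 3. These shares did not overlap, whereas the level of Apbb1ip-201 did, at 19.7 to 39.2 CPM in the KO-labelled libraries and 26.1 to 52.3 CPM in WT. The noncoding Apbb1ip-202 held 28.7% to 46.2% of the reads in the KO-labelled libraries and 0.483% to 35.3% in WT. Counting coding transcripts alone gave a log2 fold change of -0.40 (adjusted p = 0.591), so the sign of the Apbb1ip difference depended on which transcripts were counted.

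Tln1 (chromosome 4, 43531519 to 43562691, minus strand) encodes talin-1, which binds integrin beta tails and connects them to actin. It lies 2.68 Mb from B4galt1. It was at 237.2, 201.0, 222.1 and 136.2 CPM in replicates 1 to 4 of KO, against 240.3, 342.2 and 287.8 CPM in WT replicates 1 to 3. The groups did not overlap, but KO replicate 1 came within about 3 CPM of WT replicate 1. At -0.54, the log2 fold change (SE 0.209, 95% interval -1.01 to -0.08) had an edgeR adjusted p of 0.265. It turned to 0.28 (adjusted p = 0.667) with an offset for transcript length and to 0.42 (adjusted p = 0.412) on the log2(TPM + 1) scale, where the median of all genes was 0.23.

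The reads of Tln1 were divided differently among its transcripts in the 2 groups. The full-length coding Tln1-201 (8393 nt) averaged 127.3 ± 14.0 CPM in the KO-labelled libraries (SD, n = 4) and 247.8 ± 51.4 CPM in WT (SD, n = 3). The short Tln1-206 (836 nt, 43555106 to 43558460) was at 85.5, 62.6, 73.1 and 18.1 CPM in replicates 1 to 4 of KO, against 28.0, 19.5 and 34.7 CPM in WT replicates 1 to 3. Tln1-201 was thus lower in every KO-labelled library than in any WT library, while Tln1-206 was higher in KO replicates 1 to 3 and lowest in replicate 4. Tln1-201 held 58.9%, 62.9%, 60.7% and 79.3% of the reads in replicates 1 to 4 of KO, against 83.2%, 88.3% and 83.8% in WT replicates 1 to 3. Values of single transcripts, here and for the other genes, were singled out after they were seen and were not tested. Tln1 and the opposite-strand gene Creb3 overlap by 360 bases, and without strand marking the reads there cannot be told apart.

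**Figure D2:**
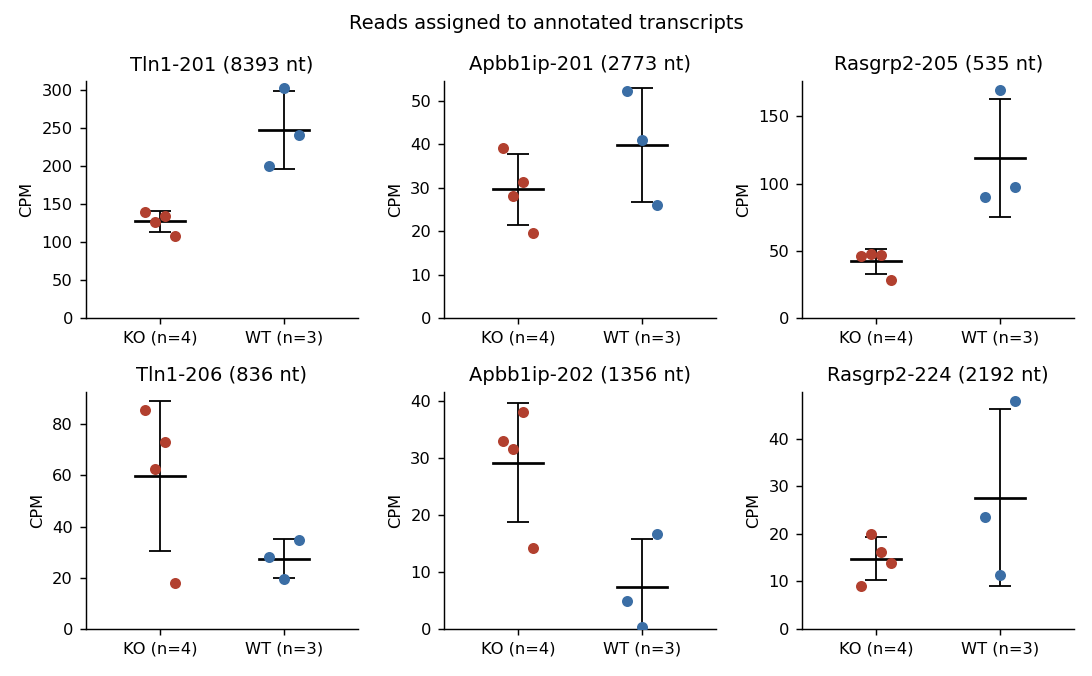
Reads assigned to single annotated transcripts of Tln1, Apbb1ip and Rasgrp2, in CPM (linear axes from 0), in the 4 KO-labelled libraries and the 3 WT libraries, with means and SD. Tln1-201 and Rasgrp2-205 were lower in every KO-labelled library than in any WT library, Tln1-206 and Apbb1ip-202 were high in KO replicates 1 to 3, and Apbb1ip-201 and the longer of the 2 Rasgrp2 transcripts overlapped.

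Fermt3 (chromosome 19, 6998958 to 7019469, minus strand) encodes kindlin-3, the kindlin of blood cells, which joins talin on the integrin tail. It was at 252.6, 348.8, 316.7 and 629.5 CPM in replicates 1 to 4 of KO, against 446.1, 340.2 and 454.3 CPM in WT replicates 1 to 3. KO replicate 4 was the highest of all libraries and replicate 1 the lowest. EdgeR gave -0.10 on the log2 scale (SE 0.281, 95% interval -0.72 to 0.53, adjusted p = 0.897), and the value was 0.042 without KO replicate 1 and -0.43 without KO replicate 4. The files list 1 transcript for it, which overlaps the opposite-strand gene Trpt1 by 89 bases. Rasgrp2, Fermt3 and Sipa1 lie within 1.37 Mb of each other on chromosome 19, and of these only Rasgrp2 passed the test.

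KO replicate 4, which has low Y-linked expression, differed from the other 3 in several of these genes. It had the highest Fermt3, Sipa1 and Rasa3 and the lowest Tln1, Apbb1ip, Rap1a, Rasgrp2 and Rap1gap2 levels among the KO-labelled libraries. Left out, the log2 fold change of Rasgrp2 was -1.32 (adjusted p = 0.00203) and that of Tln1 was -0.39 (adjusted p = 0.328). Among the 5 libraries with high Y-linked expression, Rasgrp2 was at -1.38 (adjusted p = 0.00406) and was again the 1 gene of the 9 called.

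**Figure D3:**
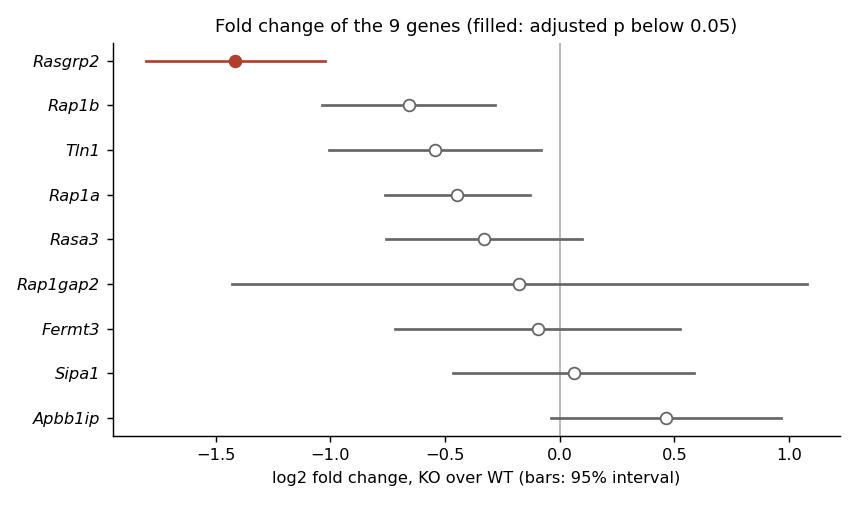
Log2 fold change of the 9 genes, KO-labelled libraries over WT, from edgeR, with 95% intervals. The filled point, Rasgrp2 at -1.41, is the gene with an adjusted p below 0.05. The intervals of Rap1b, Rap1a and Tln1 also lie below 0, but their adjusted p-values were 0.0863, 0.166 and 0.265.

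Compared per length, Rap1b was the most abundant of the 9 genes in both groups, at 588.6 ± 68.3 TPM in the KO-labelled libraries (SD, n = 4) and 782.4 ± 272 TPM in WT (SD, n = 3). Rasgrp2 was at 187.3 ± 21.5 TPM in the KO-labelled libraries and 471.6 ± 76.5 TPM in WT. In the KO-labelled libraries its range overlapped the ranges of Fermt3, at 196.5 ± 108 TPM, and Rap1a, at 150.7 ± 13.7 TPM. In WT it lay above both, with Fermt3 at 180.9 ± 44.2 TPM and Rap1a at 163.2 ± 46.1 TPM, and overlapped the range of Rap1b. Much of the Rasgrp2 TPM was on the short Rasgrp2-205, at 92.6 to 131.1 TPM in the KO-labelled libraries and 227.1 to 367.4 TPM in WT. No single coding transcript that reaches the 3′ end of Rasgrp2 was above 10.7 TPM in the KO-labelled libraries or 26.3 TPM in WT. The place of Rasgrp2 in this order therefore rested on short transcripts. Tln1 followed at 124.1 ± 39.9 TPM in the KO-labelled libraries and 88.4 ± 11.7 TPM in WT. Apbb1ip was at 44.0 ± 10.1 TPM in the KO-labelled libraries and 23.0 ± 5.99 TPM in WT. Rasa3 was at 43.6 ± 9.67 TPM in the KO-labelled libraries and 40.1 ± 8.73 TPM in WT. Sipa1, at 10.3 ± 4.24 TPM in the KO-labelled libraries and 8.63 ± 0.365 TPM in WT, and Rap1gap2, at 0.240 ± 0.0610 TPM in the KO-labelled libraries and 0.245 ± 0.0245 TPM in WT, came last in both groups. Of these TPM values, those of Rasgrp2 lay below WT and those of Apbb1ip above WT in every KO-labelled library, and the other 7 genes overlapped.

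Among 79 other genes of the pathway, 72 were tested, of which 10 were lower in the KO-labelled libraries and 0 were higher. That is 13.9%, against 1.66% called lower across all genes. At an unadjusted p below 0.05, 18 were lower and 6 higher in the edgeR test. DESeq2 called 2 higher and limma voom called 1 higher. The median log2 fold change of the 72 was -0.12, and 22 had groups that did not overlap, 30.6% against 15.7% across all genes. The lists too were chosen with earlier results of these data known, so the 13.9% and the 30.6% are descriptions and not independent evidence. The lower genes were 3 partners of the integrin-linked kinase, filamin A, signalling kinases, integrin subunits and 1 Rap2 GTPase. The summed megakaryocyte and platelet markers, 1230 to 2027 CPM in the KO-labelled libraries and 5534 to 11940 CPM in WT, moved the same way, and their part was not tested. Counting coding transcripts alone ended the calls of Flna, Rsu1, Rap2a and Itga6, and the length offset ended those of Lims1 and Prkca. On the log2(TPM + 1) scale 5 genes were called lower and 5 higher, with Rap2a, Lims1, Flna, Rsu1 and Itga6 no longer called and Prkca at 0.21. With 1 library left out, the lower calls numbered 3 without KO replicate 2, 5 without KO replicate 3, 6 without any 1 WT library, 8 without KO replicate 1 and 11 without KO replicate 4.

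**Figure D4:**
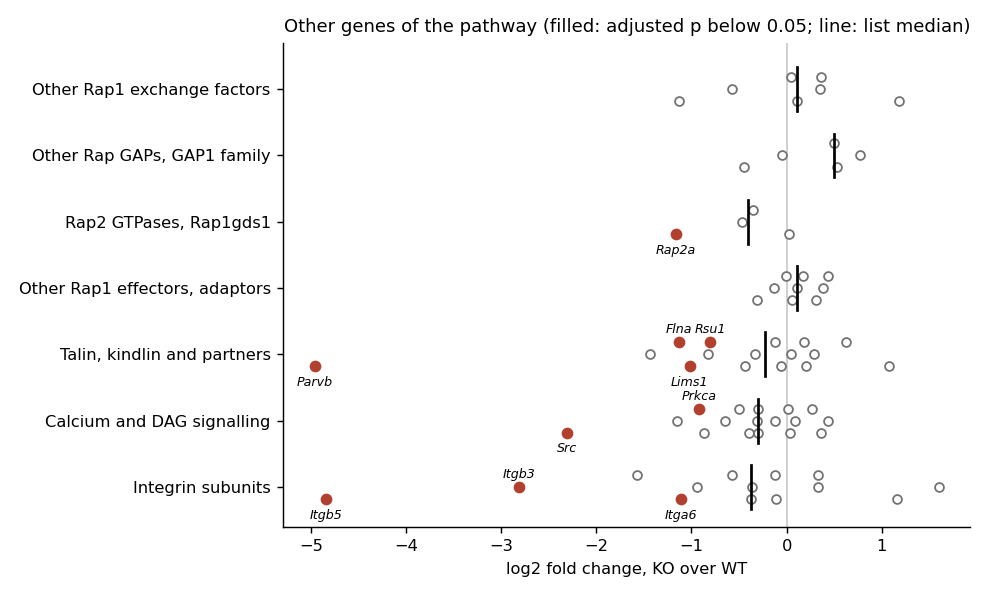
Log2 fold change, KO-labelled libraries over WT, of 72 other genes of the pathway, by list. Filled points are the 10 genes with an adjusted p below 0.05, all below 0, and vertical lines are list medians. Parvb, Itgb5, Itgb3 and Src lie farthest to the left.

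Of 16 tested genes on the list of talin, kindlin, filamin and their adhesion partners, 4 were lower, of which 3 belong to the complex of PINCH, parvin and the integrin-linked kinase Ilk. Parvb, which encodes beta-parvin, was at 3.12 ± 1.37 CPM in the KO-labelled libraries (SD, n = 4) and 96.5 ± 32.6 CPM in WT (SD, n = 3). EdgeR gave a log2 fold change of -4.96 (SE 0.371, adjusted p = 4.63e-05), and the call held in each of 20 alternatives. Lims1, which encodes the parvin partner PINCH-1, was at 305.4 ± 43.9 CPM in the KO-labelled libraries and 617.7 ± 112 CPM in WT (log2 fold change -1.02, edgeR adjusted p = 0.0151). Rsu1, which binds PINCH-1, was at 327.6 ± 51.2 CPM in the KO-labelled libraries and 572.9 ± 106 CPM in WT (-0.81). Flna, or filamin A, which competes with talin for integrin tails, was at 78.2 ± 6.46 CPM in the KO-labelled libraries and 171.0 ± 58.4 CPM in WT (-1.13, edgeR adjusted p = 0.0279). Lims1 lost its call without KO replicate 2 (-1.04), KO replicate 3 (-1.03) or WT replicate 3 (-0.92). Flna lost it without KO replicates 1, 2 or 3 (-1.13, -1.08 and -1.15) or WT replicates 1 or 2 (-1.05 and -0.95). Rsu1, with an adjusted p of 0.0494, lost it without each of the 7 libraries in turn (-0.93 to -0.66). The talin and kindlin paralogues were scarce, with Tln2 at 2.46 CPM in the KO-labelled libraries and 1.17 CPM in WT, and Fermt1 and Fermt2 below the filter. Ilk, the kinase-like partner of the parvins and PINCH-1, was at -0.83 (edgeR adjusted p = 0.0697).

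Of 17 genes listed for signalling upstream of Rap1 (calcium, diacylglycerol and other signalling genes), 2 were lower. Src, the tyrosine kinase, was at 1.69 ± 0.612 CPM in the KO-labelled libraries (SD, n = 4) and 8.32 ± 4.48 CPM in WT (SD, n = 3), with a log2 fold change of -2.31 (SE 0.456, edgeR adjusted p = 0.0265). It lost its call without KO replicates 2 or 3 (-2.43 and -2.32) or WT replicate 2 (-1.79). Prkca, or protein kinase C alpha, was at 37.8 ± 2.42 CPM in the KO-labelled libraries and 71.4 ± 17.2 CPM in WT (-0.92, edgeR adjusted p = 0.0272). It lost its call without KO replicates 2 or 3 (-0.92 and -0.91) or WT replicates 2 or 3 (-0.75 and -0.96), and was at -0.05 (adjusted p = 0.920) with an offset for transcript length.

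Of 14 integrin subunits, 3 were lower and 0 higher, where 1.66% of all genes tested were called lower. Itgb3, the platelet beta-3 subunit, was at 24.7 ± 7.77 CPM in the KO-labelled libraries (SD, n = 4) and 173.3 ± 92.2 CPM in WT (SD, n = 3), with a log2 fold change of -2.81 (SE 0.364, edgeR adjusted p = 0.00214). Itgb5 was at 0.611 ± 0.288 CPM in the KO-labelled libraries and 17.7 ± 4.98 CPM in WT (-4.84, edgeR adjusted p = 0.000127). Itga6 was at 108.6 ± 18.5 CPM in the KO-labelled libraries and 233.9 ± 49.6 CPM in WT (-1.11, edgeR adjusted p = 0.0138). Itga6 lost its call without KO replicate 2 (-1.04) or WT replicate 1 (-1.09). Itga2b, the partner of Itgb3, was at -0.94 and Itgb1, the common beta-1 subunit, at -0.11, and neither passed. Others ran the other way without being called. Itgb7, at 1.16, and Itga4, at 0.33, lay above WT in every KO-labelled library, and Itgam, which overlapped, was at 1.605. At an unadjusted p below 0.05 in the edgeR test, 5 subunits were lower and 2 higher.

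The remaining lists had 1 call. Of the 4 Rap2 and Rap1gds1 genes, Rap2a was lower, at 14.7 ± 4.53 CPM in the KO-labelled libraries (SD, n = 4) and 32.9 ± 6.02 CPM in WT (SD, n = 3), with an edgeR adjusted p of 0.0485 that was lost without KO replicates 1 or 2 (log2 fold changes -1.15 and -1.15) or WT replicates 1, 2 or 3 (-1.25, -1.02 and -1.24). Rap2c was at -0.47. None of 7 tested exchange factors other than Rasgrp2 passed with edgeR (0 calls), and 2 higher and 1 lower had an unadjusted p below 0.05. Rapgef1 was at -0.57 and Rapgef3, activated by cyclic AMP, at 1.19. The 5 other tested GTPase-activating genes also gave 0 calls with edgeR. Sipa1l1, at 0.77 (adjusted p = 0.135), was the 1 with an unadjusted p below 0.05, and 4 alternatives called it. Sipa1l3 was at -0.45. The 9 tested effectors and adaptors gave 0 calls too, with Krit1, at 0.31, the 1 gene under an unadjusted p of 0.05, and Rassf5, a Rap1 effector of lymphocytes, was at 0.38.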

How the data were processed

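RNA was amplified with the SMART-Seq v4 kit and sequenced as paired 2x150bp reads, per the labels' protocols, and the kit does not mark strand. Cutadapt, Salmon 0.11.2 and the build mm10 are named in the submitters' processing notes, and the authors deposited estimated counts, TPM and effective lengths per transcript. No source used here names the transcript set. Of 112092 transcripts, 111787 matched GENCODE M21 by identifier, and the deposited estimated counts were summed to 34932 genes and rounded. Unmatched transcripts held 0.0836% to 0.123% of the reads.

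The 4 libraries labelled KO were compared with the 3 labelled WT by the quasi-likelihood test of edgeR 4.0.16 (R 4.3.3, TMM, filterByExpr, Benjamini-Hochberg over all genes tested, adjusted p below 0.05). Simulated counts were also run through this test. They were drawn with the same dispersion for every gene, so they do not give its error rate in these libraries. Log2 fold changes are KO minus WT. CPM are TMM-scaled, and TPM are the deposited values summed per gene. The members and lists were chosen with earlier results of these data known. All genes of the list, B4galt1, each pathway gene that passed (with those of smallest p where under 2 passed in a list) and the 3 genes nearest Rasgrp2 are named; others, marker genes included, were chosen after their values were seen. Alternatives were other scalings and filters, DESeq2 1.42.0, limma 3.58.1 (voom, and log2(TPM + 1) for genes with a mean TPM of at least 1), a length offset, the replicate number as a block, sex pattern, coding features only and each library left out. Limiting the comparison to 5 libraries with high Y-linked expression was added after seeing the data. Protein sequences were not used here.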

Additional observations from a re-analysis of the deposited data

Results flagged for a closer look

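Among 28 quantities, 2 had a single KO-labelled library standing apart from its group, which chance gives in about 1 of 20 groups. Rap1b was at 1630 CPM in KO replicate 2 and at 1358 to 1376 CPM in the other KO-labelled libraries. B4galt1 was at 19.3 CPM in KO replicate 1 and at 14.6 to 14.9 CPM in the other KO-labelled libraries. Groups of 3 libraries were not examined.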

How the results depend on the processing

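Rasgrp2 kept its call in all 20 alternatives. The count of the 9 genes called lower was 1, and it was 3 with DESeq2, 2 with limma voom and 1 to 2 with 1 library left out. Across all genes, 88 higher and 244 lower calls became 352 and 514 with DESeq2, 269 and 439 with limma voom, and 218 and 396 with sex pattern as a covariate. Higher calls were 213 with the length offset and 362 on the log2(TPM + 1) scale, which put 46.0% and 67.7% of the calls on the higher side against 26.5%. The TPM scale moved the median of all genes to 0.23. With 1 library left out, higher calls ran from 30 to 130 and lower calls from 157 to 279. Pathway genes called lower, 10 in the main test, numbered 5 on the TPM scale, 6 with coding transcripts alone and 3 to 11 with 1 library left out, and those called higher, 0 in the main test, numbered 2 with DESeq2, 1 with limma voom, 5 on the TPM scale and 3 with the length offset.

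No pairing of the samples by replicate number was seen, which does not exclude one. Deviations of same-numbered libraries correlated at -0.0525, -0.120 and -0.0392, and no WT library correlated best with its own number. With the number as a replicate block, 58 genes were higher, 3 pathway genes were lower (Parvb, Itgb5 and Itgb3; Rap2a, Lims1, Flna, Rsu1, Src, Prkca and Itga6 lost their calls), and Rasgrp2 was at -1.31 (adjusted p = 0.00938).

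Signs turned for genes that had not passed and for Prkca, which had. On the TPM scale Prkca was at 0.21, Tln1 was at 0.42, Rasa3 at 0.11, Fermt3 at 0.016, Sipa1l3 at 0.24 and B4galt1 at 0.20. With the length offset Tln1 was at 0.28, Sipa1 at -0.041 and Sipa1l3 at 0.047. With coding transcripts alone Apbb1ip was at -0.40, Rasa3 at 0.53 and Krit1 at -0.13. With the replicate block Rap1gap2 was at 0.065 and Sipa1 at -0.14, and among the 5 libraries with high Y-linked expression they were at 0.058 and -0.22. With 1 library left out, Fermt3 ran from -0.43 to 0.042, Rap1gap2 from -0.49 to 0.098, Sipa1 from -0.13 to 0.16 and B4galt1 from -0.47 to 0.037. The cause was not tested. The difference in the Rap1b share was -1.27 points by reads (exact permutation p = 0.229), and with 1 library left out it ran from -3.60 to -2.10, with exact permutation p from 0.0667 to 0.100 in designs that cannot go below 0.05. Rap1gap2, at 15 to 44 reads, was not tested on the TPM scale or with coding transcripts alone.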
